A study of Mus musculus with 16 samples.

Results

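The transcriptome of the normal seminal vesicle (SV) at puberty was described from the 4 RNA-seq samples of the WT-veh group, the vehicle-treated wild-type arm of a study with 16 samples in 4 groups of 4. WT-veh mice were C57BL/6 males that received corn oil by subcutaneous injection on days 1 to 5 of life and whose SVs were collected at week 5. The other groups were WT-DES, which received 2 µg of diethylstilbestrol (DES, a synthetic oestrogen) per pup per day on the same days, and αERKO-veh and αERKO-DES, which received corn oil or DES and lack a working Esr1, which encodes oestrogen receptor α. Wild-type pups came from purchased pregnant dams and αERKO males were bred in house from heterozygotes, so genotype and colony cannot be told apart. Each WT-veh sample is described in the methods as the RNA of an individual mouse, with the SV dissected away from the anterior prostate, the lobe that lies against it. WT-DES RNA is described there as 3 pools, while the table holds 4 samples.

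The SV is a paired male accessory gland of the Wolffian duct. Its folded luminal epithelium is supported by basal cells, a fibroblast stroma and a thick coat of smooth muscle, and it secretes most of the volume of semen: clotting proteins that transglutaminase cross-links into the copulatory plug, protease inhibitors, proteins that bind sperm, and fructose, polyamines and prostaglandins. Testicular hormones drive its growth and secretion from puberty onwards, and tissue recombination work has shown that the mesenchyme instructs which secretory proteins the epithelium makes.

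Expression was deposited as FPKM, the number of sequenced fragments scaled by the length of the transcript in kilobases and by the depth of the sample, for 31274 genes. Because FPKM is scaled by length, levels of different genes in the same sample can be ranked. In WT-veh, 14222 genes (45.5%) had a mean FPKM of at least 1, 8316 (26.6%) of at least 10, and 1044 (3.34%) of at least 100. The median of all genes was 0.44 FPKM, and 10396 genes (33.2%) were listed at 0 in all 4 samples. The low values rose in steps that give an estimate of depth. In genes with 1 annotated transcript of 500 to 1500 nt, 1 fragment per kilobase was worth 0.0494 to 0.0517 FPKM in the WT-veh samples, a similar depth in all 4, and 77.1% to 87.2% of the low values lay within 0.2 of a whole number of such steps. At this depth 3 fragments per kilobase correspond to 0.148 to 0.155 FPKM, so that levels near 0.1 rest on very few fragments. Sample 4 stood somewhat apart: Pearson's r of log2(FPKM + 1) across all genes was 0.985 to 0.989 between it and the others and 0.992 to 0.993 among samples 1 to 3.

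The label was borne out by the markers of the gland. Svs4, Svs2 and Ceacam10, which encode abundant SV secretory proteins, ranked 2, 3 and 5 of all genes by mean FPKM, and Svs5 ranked 1. Their upstream sequences are shown because they lie in front of the highest transcripts of the gland. Each is the stretch of 250 bases before the annotated start in RefSeq on GRCm38.p6, on the strand of the gene. Capitals mark TATAAA, the core of a TATA box, and TGTTCT, a half-site bound by steroid receptors such as that for glucocorticoids, each on either strand (TTTATA and AGAACA on the reverse strand). Their coordinates are chr2:164332515-164332764 (plus strand) for Svs5, chr2:164278308-164278557 (minus) for Svs4, chr2:164238342-164238591 (minus) for Svs2 and chr7:24776954-24777203 (plus) for Ceacam10, for the later of its 2 annotated starts.
Svs5: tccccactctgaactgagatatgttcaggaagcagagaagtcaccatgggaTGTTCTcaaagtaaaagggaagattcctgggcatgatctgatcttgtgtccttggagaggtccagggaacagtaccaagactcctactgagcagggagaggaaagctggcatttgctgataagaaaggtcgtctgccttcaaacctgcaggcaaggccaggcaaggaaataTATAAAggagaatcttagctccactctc
Svs4: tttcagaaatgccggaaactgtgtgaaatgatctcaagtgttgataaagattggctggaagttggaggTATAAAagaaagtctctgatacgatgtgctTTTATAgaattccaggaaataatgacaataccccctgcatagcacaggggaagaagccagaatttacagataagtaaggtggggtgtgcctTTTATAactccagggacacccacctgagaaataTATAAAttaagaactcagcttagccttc
Svs2: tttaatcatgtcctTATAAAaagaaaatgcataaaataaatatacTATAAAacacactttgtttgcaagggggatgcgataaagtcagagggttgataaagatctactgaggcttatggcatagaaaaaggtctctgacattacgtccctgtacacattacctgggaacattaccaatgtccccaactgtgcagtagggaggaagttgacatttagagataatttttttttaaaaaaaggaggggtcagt
Ceacam10: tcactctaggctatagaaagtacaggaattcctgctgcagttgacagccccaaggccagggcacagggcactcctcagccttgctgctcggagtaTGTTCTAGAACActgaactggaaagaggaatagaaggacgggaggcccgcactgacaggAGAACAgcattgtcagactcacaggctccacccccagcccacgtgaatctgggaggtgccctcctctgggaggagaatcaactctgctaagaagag
The Svs5 and Svs4 windows each held TATAAA beginning 28 bases before the start. Svs2 held it at 236 and 205 bases and not near the start, and Ceacam10 held no TATAAA but a TGTTCT directly followed by AGAACA, 155 bases before the start. Among the genes on the list of SV secretory proteins, 16 were found in the promoter table, and 6 of them had TATAAA on the gene strand beginning 20 to 40 bases before a start, in 38.9% of their 18 windows, against 1.99% of 32851 windows of all genes. TATAAA on either strand anywhere in the window was found in 7 of the 16 genes (44.4% of windows, 12.4% in all genes), and TGTTCT on either strand in 10 (66.7% of windows, 16.1% in all genes). The motifs were chosen with the levels of these genes known, and a match of letters is not a bound site. Svs3a and Svs3b are not independent here, since 244 of their 250 upstream bases (97.6%) were the same. Svs5 and Svs6 may not be either: TGTTCT lay at 199 and 203 bases and TATAAA at 28 and 32. Svs3a gave 2 windows, with TATAAA at 28 and 29 bases, so the shares of windows count some related sequences more than once.

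The highest level of any gene was that of Svs5, one of the clotting protein family, at 11112.5, 11903.5, 10084.3 and 10166.8 FPKM in samples 1 to 4. Svs4 stood at 10445, 10901, 10074 and 9914 FPKM and Svs2, a main substrate of the plug transglutaminase, at 9085, 10031, 8946 and 8196 FPKM. Svs5 was above Svs4 in each of the 4 samples, although the ranges of these neighbours overlapped. Ceacam10, a secreted member of the carcinoembryonic antigen family, followed at 5899.96, 6399.84, 5735 and 5219 FPKM. Svs6, a further clotting protein, was at 5308, 6659, 5325 and 5397 FPKM, with sample 2 above the others. Pate4, the SVS7 protein that binds sperm, was at 5337, 5829, 5568 and 5088 FPKM, and all 4 of its values were above all 4 of the next gene.

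Svs1, of the diamine oxidase family, had a mean of 4197 ± 405 FPKM, Sva, the seminal vesicle antigen that coats sperm, 4034 ± 306, Svs3a 3834 ± 194, Svs3b 3684 ± 207 and Spink3, a Kazal-type trypsin inhibitor, 3112 ± 80.4 (SD, n = 4 each). The 2 Svs3 genes are near-copies, so the division of reads between them is uncertain. In all, 11 of the 15 highest genes were on the list of SV secretory proteins. The other 4 were Snord83b, read in 1 sample only, A630095E13Rik, 9530003J23Rik and Spinkl, a Kazal-type inhibitor, at means of 4225 ± 281, 3743 ± 194 and 3173 ± 65.6 FPKM for the last 3. Not every gene of the list was on: 14 of 18 had a mean FPKM of at least 1 and 13 of at least 100, Doxl2, a diamine oxidase-like gene beside Svs1, was at 10.1 ± 0.569 FPKM, and Sval2, Pate2, Sval1 and Sval3 were under 1. The median of the list was 3759 FPKM, against 0.44 for all genes. Its 18 genes held 11.2%, 12.4%, 10.9% and 9.78% of the summed FPKM of samples 1 to 4 (11.1% ± 1.09, SD, n = 4), and the 20 highest genes of any kind held 15.9% ± 1.38.

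Of these genes, 6 lie side by side on chromosome 2 of GRCm38, in the order Svs2, Svs3b, Svs4, Svs3a, Svs6 and Svs5, within 98.5 kb from 164235929 to 164334396. No other gene of the table matched to GENCODE M21 lay wholly inside this stretch. All 6 had means between 3684 and 10817 FPKM.

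**Figure D1:**
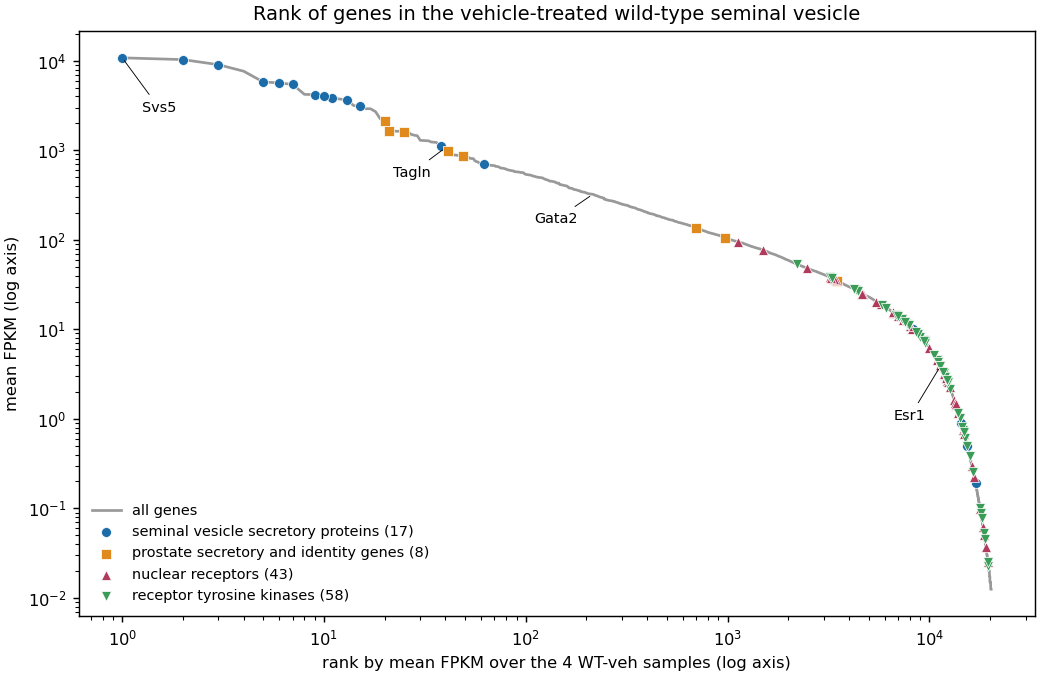
Mean FPKM of each gene over the 4 WT-veh samples (y axis, log) against its rank (x axis, log), for genes with a mean above 0.01. Coloured symbols mark 4 lists of genes, and 11 of the 15 leftmost genes are SV secretory proteins, whereas the highest nuclear receptor is Nr1h2 at rank 1125 and the highest receptor tyrosine kinase Ddr1 at rank 2216.

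Secretory genes best known from the prostate lobes were present as well, and they split into steady and variable members. Pbsn, which encodes probasin, stood at 2179, 2060.5, 2161 and 2009.9 FPKM and ranked 20. Tgm4, the transglutaminase that cross-links the clotting proteins and a marker of the anterior prostate, was at 1856, 1679.6, 1594 and 1453 FPKM. These values differed little between samples. Sbp, the spermine-binding protein of the ventral prostate, was in contrast at 58.8, 2.59, 2057 and 4368 FPKM, so that its mean of 1621 and its rank of 25 rest on samples 3 and 4. Msmb, which encodes β-microseminoprotein, was at 689, 94.8, 1082 and 1586 FPKM, lowest in the same sample 2 and highest in the same sample 4. Not all variable members shared this order. 9530053A07Rik was at 1379, 1052, 782 and 741 FPKM and Ren2 at 146, 93.1, 113 and 73.5, both highest in sample 1 and lowest in sample 4. All 9 genes of the list were above 10 FPKM and their median CV, the SD as a percentage of the mean, was 25.4%, against 6.70% for the SV secretory proteins of at least 10 FPKM and 7.76% for all 8316 genes of at least 10 FPKM. Sbpl, a gene like Sbp by name, followed the order of Sbp at 4.05, 0.48, 197 and 423 FPKM and was chosen after its values were seen.

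**Figure D2:**
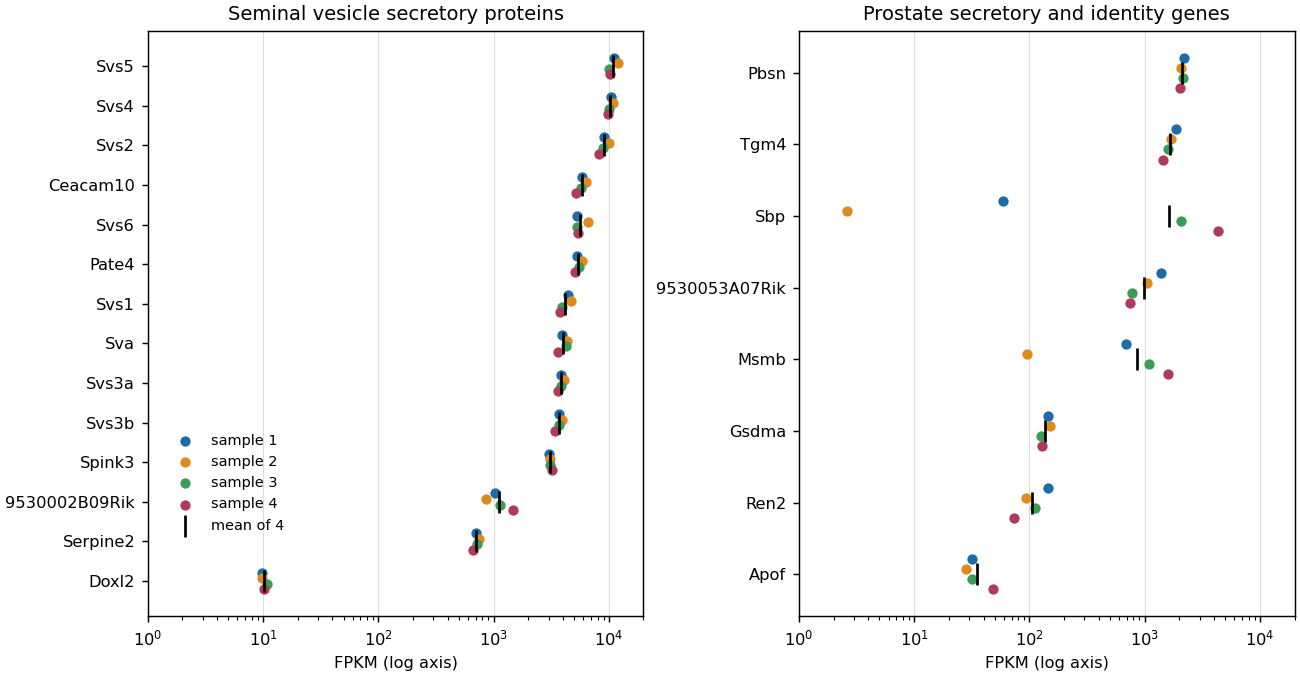
FPKM in each of the 4 WT-veh samples (x axis, log) for the 14 SV secretory genes of at least 10 FPKM (left) and 8 prostate secretory and identity genes (right), with the mean as a black bar. The 4 samples lie close together for most SV genes, while Sbp runs from 2.59 in sample 2 to 4368 in sample 4 and Msmb from 94.8 to 1586.

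Secreted protease inhibitors other than Spink3 and Spinkl formed a large second tier. Cst3, which encodes the cysteine protease inhibitor cystatin C, was at 1241 ± 71.9 FPKM, Wfdc15b of the WAP family at 704 ± 61.5, Spint2, a Kunitz-type inhibitor of membrane serine proteases, at 686 ± 39.9, Spink8 at 532 ± 80.4 and Spink11 at 471 ± 34.9 (SD, n = 4 each). Of 34 inhibitors on the list, 22 had a mean of at least 1 FPKM (64.7%, against 45.5% of all genes) and 8 of at least 100. Wfdc3 was the inhibitor with the order seen in Sbp, at 55.8, 2.19, 106 and 226 FPKM. Among defence proteins, 11 of 19 were above 1 FPKM. They were led by Clu, the extracellular chaperone clusterin, at 479.6 ± 34.2 FPKM, the β-defensins Defb1 (263 ± 56.4) and Defb42 (244 ± 39.9), the plasma glutathione peroxidase Gpx3 (207 ± 43.1) and the siderophore-binding Lcn2 (149.5, 149.6, 165 and 181). The lactotransferrin gene Ltf stood at 8.53 ± 2.21 FPKM, and the gel-forming and surface mucin genes on the list did not exceed a mean of 1.98 FPKM.

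Most of the machinery that loads proteins into the secretory route was high. Of 56 genes for translocation, folding and glycosylation in the endoplasmic reticulum and for its stress sensors and transcription factors, 55 were above 1 FPKM and 37 above 100, and their median was 172 FPKM. The 5 highest were Ssr4, of the translocon-associated complex, at 887 ± 48.0, the disulphide isomerase P4hb at 816 ± 17.8, the lectin chaperone Calr at 699 ± 74.8, the chaperone Hspa5 (BiP) at 596 ± 24.7 and Agr2, a disulphide isomerase of mucus- and fluid-secreting epithelia, at 564 ± 27.5 (SD, n = 4 each). The median CV of the 51 members of at least 10 FPKM was 5.67%. For the small molecules of seminal fluid, Akr1b7, an aldose reductase-like enzyme of the genital tract, was at 529, 530.4, 695 and 845 FPKM. Sord, which turns sorbitol into fructose, was at 177 ± 26.3 FPKM, Srm (spermidine synthase) at 161 ± 14.9, Hpgd, which inactivates prostaglandins, at 133 ± 7.83 and the carbonyl reductase Cbr1 at 117 ± 9.16. Cdo1, which begins the breakdown of cysteine towards taurine, was among the 30 highest genes at 1477 ± 91.6 FPKM.

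Transcription factors stood far below the secretory genes. Gata2, a zinc finger factor of the urogenital tract, led the factors of the Wolffian duct, urogenital sinus and mesenchyme at 268, 415, 274 and 335 FPKM (rank 215). Next among those named came Tbx3 at 134 ± 16.7, Gata3 at 116 ± 10.2 and Hoxd9 at 45.4 ± 1.61. The range of Gata2 lay above those of Tbx3 and Gata3. Of this list of 45 factors, 40 were above 1 FPKM and 27 above 10.

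Epithelial ETS factors were also high. Elf5, which acts in secretory alveoli of the mammary gland, was at 309, 309, 312 and 246 FPKM, and Ehf at 155, 162, 142 and 117, both lowest in sample 4. Elf3 followed at 56.8 ± 2.74 and Spdef, a factor of goblet and prostate cells, at 48.9 ± 5.62, and 22 of 26 ETS genes were above 1 FPKM. Among Hox genes, which set position along the body, Hoxb13 led at 135, 115, 125.67 and 194 FPKM, highest in sample 4. The Hoxb cluster had 9 of 10 genes above 10 FPKM, Hoxd 5 of 9, Hoxa 2 of 11 and Hoxc 0 of 9, where the highest was 0.84 FPKM. T-box genes were led by Tbx2 at 167 ± 12.1 FPKM, and Tead2, a partner of the Yap coactivator, stood at 165 ± 15.4. The prolactin-responsive Stat5a was at 87.3 ± 9.99 and Stat5b at 54.2 ± 6.99. Of the Id proteins, which block basic helix-loop-helix factors, Id3 was at 411 ± 41.7, Id1 at 174, 309, 230.2 and 305, and Id2 at 183 ± 11.4 FPKM. Immediate early factors were led by Jund at 121 ± 18.6, and Fos was at 3.85, 5.32, 3.61 and 6.92 FPKM.

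Of 49 nuclear receptors, 35 were above 1 FPKM (71.4%, against 45.5% of all genes), 18 were above 10 and none was above 100. The highest were the liver X receptor Nr1h2 at 95.7 ± 6.70, the orphan receptor Nr2f6 at 76.7 ± 6.36, the thyroid hormone receptor Thra at 48.8 ± 1.42, the retinoid X receptor Rxrb at 38.2 ± 2.56 and Ppard at 37.9 ± 1.60 FPKM (SD, n = 4 each). Esr1 was much lower, at 4.43, 4.55, 3.70 and 2.81 (rank 11346). It was lowest in sample 4. Esr2, the gene for oestrogen receptor β, was at 0.748 ± 0.142 and the progesterone receptor gene Pgr at 0.685 ± 0.232, while the glucocorticoid receptor gene Nr3c1 was at 10.2 ± 1.75 FPKM. A transcript level of a receptor says nothing of its protein.

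Sample 4 was also the one in which short transcripts were read most. Relative to the mean of all 16 samples, Spearman's rho between transcript length and the deviation of a gene was −0.355, −0.208, −0.415 and −0.519 in WT-veh samples 1 to 4, across 15009 genes, which are not independent of each other. The part of this trend in the levels of long transcripts in sample 4 was not tested.

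Of receptors at the cell surface, 18 of 58 tyrosine kinases, 15 of 33 morphogen receptors, 19 of 37 cytokine and hormone receptors and 6 of a list of 46 that holds receptors for nerve and vasoactive signals and the R-spondin receptors Lgr4, Lgr5 and Lgr6 reached 10 FPKM, and none reached 100. Receptor tyrosine kinases were led by the collagen receptor Ddr1 at 53.5 ± 3.17, Fgfr2, the epithelial receptor for mesenchymal FGFs, at 40.2, 43.7, 38.9 and 31.1, the Wnt receptor Ryk at 37.3 ± 0.797, Ephb4 at 28.0 ± 1.89 and Erbb2 at 27.3 ± 1.87 FPKM, and 43 of 58 were above 1. For TGF-β superfamily, Wnt, Notch and Hedgehog ligands, 31 of 33 receptors were above 1 FPKM, with the Wnt co-receptor Lrp5 at 32.8 ± 1.77 and Bmpr1a at 30.4 ± 2.74 the highest. Cytokine and pituitary hormone receptors were led by Ltbr at 80.0 ± 3.14, Tnfrsf1a at 69.9 ± 5.07 and Il11ra1 at 69.0 ± 6.42 FPKM. Prlr, the prolactin receptor, was at 29.8, 33.7, 28.1 and 22.9 FPKM. Among receptors for nerve and vasoactive signals, the ATP-gated channel P2rx4 was highest at 60.4 ± 3.74, followed by the prostaglandin receptor Ptger3 at 25.5 ± 2.87 and the ATP-gated channels P2rx2 (22.03 ± 2.21) and P2rx1 (21.2 ± 4.002), the last of which mediates contraction of male ducts. The muscarinic receptor gene Chrm3 was at 3.45 ± 0.683 and the α1-adrenergic Adra1a at 2.14 ± 0.483 FPKM.

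**Figure D3:**
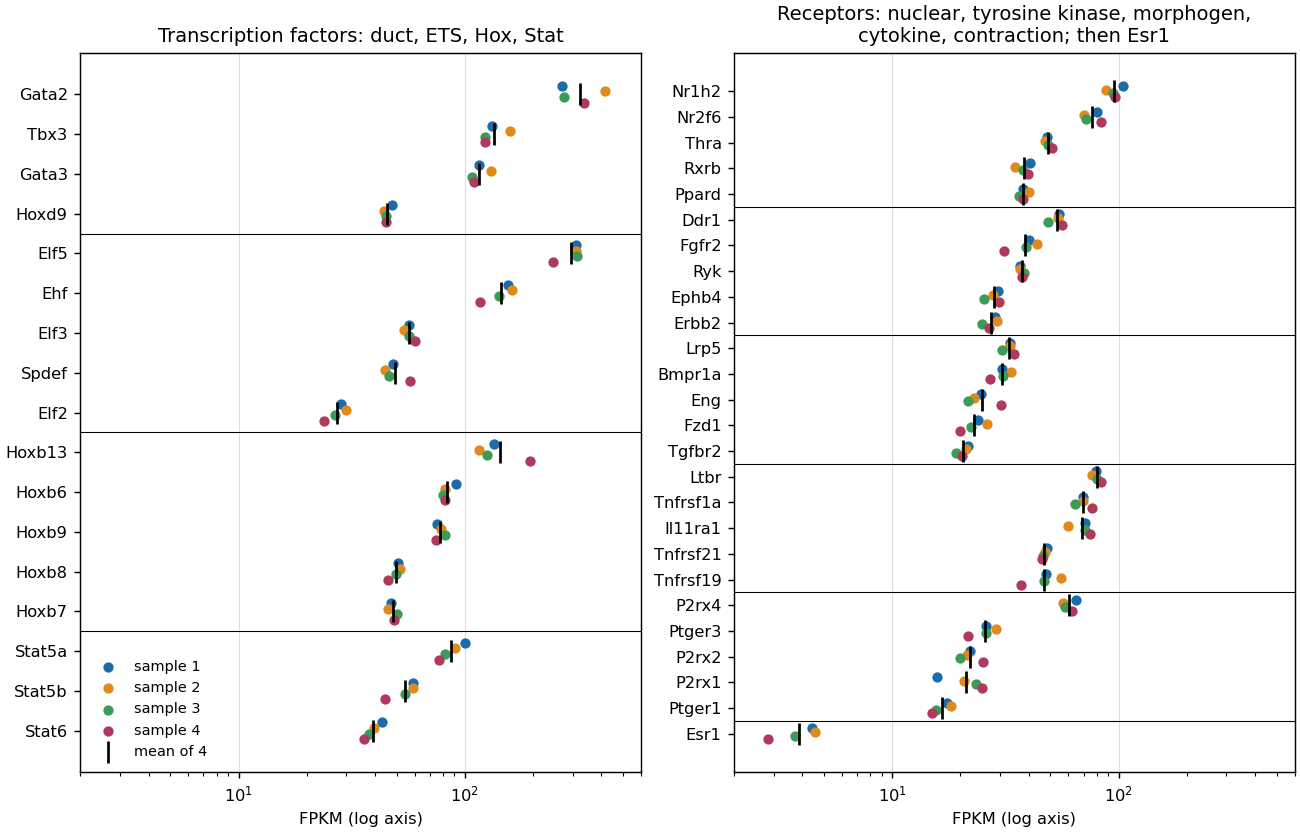
FPKM in each WT-veh sample (x axis, log) for the leading transcription factors of 4 lists (left) and the leading receptors of 5 lists, with Esr1 below (right); the black bar is the mean. Gata2 and Elf5 lie near 300 FPKM, whereas Esr1 lies below 10 and is lowest in sample 4.

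Markers of 22 cell types and tissues were read to see which cells the samples hold. In RNA of a whole organ, fewer cells of a type and less RNA per cell cannot be told apart. For luminal epithelium all 11 markers were above 10 FPKM, with a median of 162. They were led by the keratins Krt18 (558, 499, 485 and 521 FPKM) and Krt19 (419.9, 479, 434 and 484) and the tight-junction claudin Cldn3 (415 ± 33.9). Smooth muscle had the highest median of these 22 lists, 264 FPKM, with 10 of 10 markers above 1, among them Tagln, an actin-binding protein, at 1095, 1186, 1001 and 1001 FPKM and the actin Acta2 at 599, 681, 576 and 615 FPKM. Fibroblasts were read through Dcn (decorin) at 255 ± 21.1 and the collagen Col3a1 at 228 ± 20.2 FPKM, with 8 of 8 markers above 10 FPKM and a median of 113. Basal epithelium was lower, with the keratins Krt15 at 61.6, 78.0, 74.9 and 116, Krt5 at 61.2 ± 7.37 and Krt14 at 50.1 ± 4.72 FPKM, and Trp63, the defining factor of basal cells, at 11.1 ± 1.31.

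Vessels, nerves and resident immune cells followed. Endothelial markers were led by Egfl7 at 38.0 ± 5.56 and Cldn5 at 25.2 ± 5.50 FPKM, pericyte markers by Rgs5 at 18.5 ± 1.44, and the Schwann cell marker Mbp stood at 21.4 ± 3.72 FPKM. Of macrophage genes, the complement genes C1qb and C1qa were at 58.5 ± 13.9 and 58.5 ± 12.5 FPKM and Csf1r at 11.2 ± 2.73. By their means, T cell markers did not exceed 2.93 FPKM, mast cell markers 2.91, neutrophil markers 1.26 and B cell markers 0.765. Germ cell markers of the testis were at or near 0, with Prm2, Tnp1 and Akap4 listed at 0 in all 4 samples. Of 8 epididymal markers only Crisp1, a sperm-binding secretory protein, was above 1, at 398, 316, 489.6 and 519 FPKM, while the means of the others did not exceed 0.413 and Lcn9 and Spint4 were listed at 0. Urothelial uroplakins were measurable, with Upk1b at 66.7 ± 6.21 and Upk2 at 54.0 ± 8.22 FPKM. The other 2 of the list varied more, Upk1a at 37.55, 15.2, 33.8 and 76.5 and Upk3a at 9.68, 1.53, 3.63 and 15 FPKM, both lowest in sample 2 and highest in sample 4. Markers of dividing cells were modest, with Birc5 at 14.3 ± 5.43, Top2a at 11.6 ± 1.07 and Mki67 at 6.00 ± 0.478 FPKM, and 12 of 12 above 1.

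**Figure D4:**
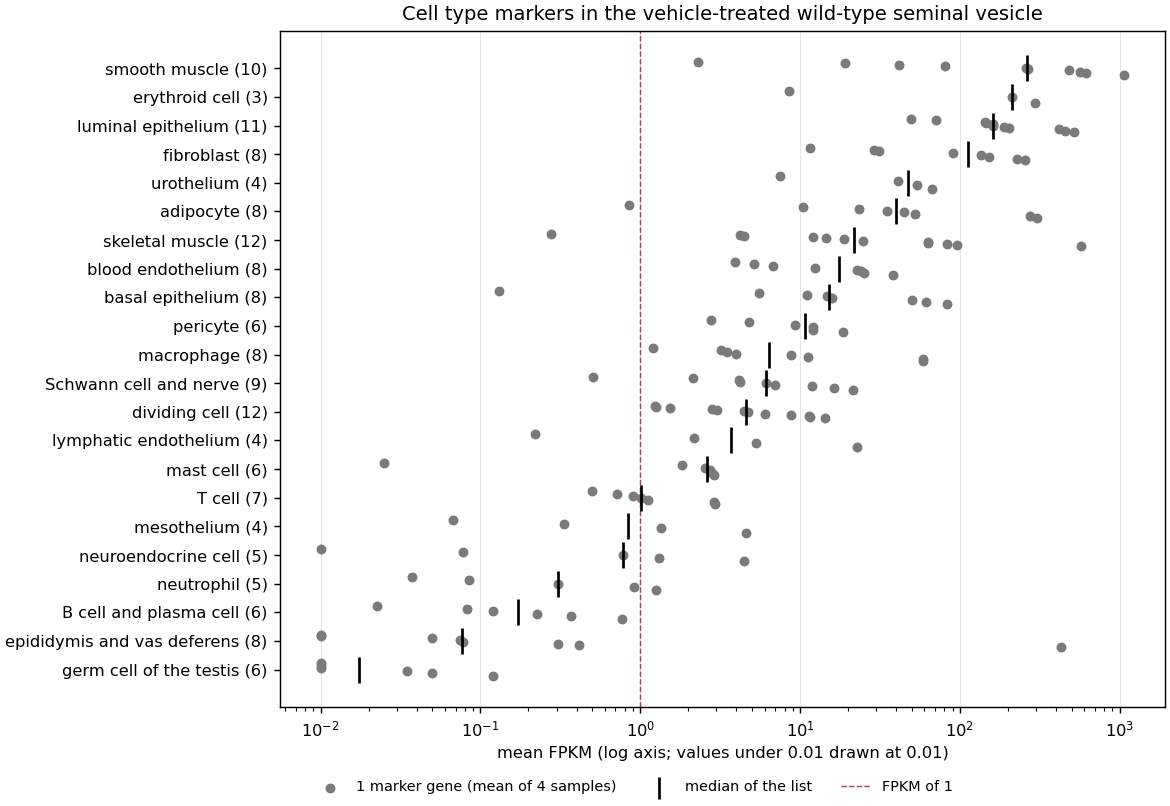
Mean FPKM over the 4 WT-veh samples (x axis, log) of each marker gene in 22 lists, ordered by the median of the list (black bar), with the number of markers in brackets. Smooth muscle, erythroid, luminal epithelium and fibroblast markers have the highest medians, and germ cell and B cell markers lie under the dashed line at 1 FPKM.

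Markers of tissues that lie outside the gland were uneven between samples. Skeletal muscle genes were low in samples 1 to 3 and high in sample 4. Mylpf, a myosin light chain of fast fibres, was at 6.48, 2.48, 17.7 and 307 FPKM, Tnnt3, a fast troponin, at 3.78, 0.74, 14.5 and 232, and Pvalb (parvalbumin) at 0.67, 0, 3.44 and 95.6. The 12 markers summed to 582, 618, 593 and 2042 FPKM. Acta1 alone made up most of that sum in the first 3 samples, at 530.1, 577, 483 and 705 FPKM, and unlike the others it did not set sample 4 far apart. Adipocyte genes were lowest in sample 2 and highest in sample 4: Fabp4, which carries fatty acids, was at 256, 95.8, 373 and 494 FPKM, Adipoq (adiponectin) at 34.2, 10.2, 36.2 and 58.6, and the 8 markers summed to 729, 261, 815 and 1183 FPKM. Haemoglobin Hba-a2 was at 299.5, 214, 279 and 397 FPKM, although reads of near-identical globin copies can be split among entries.

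The spread between the 4 samples was small for most genes. Over the 8316 genes of at least 10 FPKM the median CV was 7.76%, with 2.77% and 21.2% at the 5th and 95th percentiles, and 68.8% of them had a CV of at most 10%. The steadiest were Rbm4b, an RNA-binding protein, at 11.4, 11.4, 11.4 and 11.4 FPKM, Islr at 52.1, 52.4, 51.9 and 52.3, and Ubl3 at 46.9, 46.9, 47.0 and 47.4, followed by Ank, Cul4a, Icmt, Hoxb2, Tmbim1, Metap1 and Rnf185, with CVs of 0.411% to 0.784% over these 10. The largest CV that 4 samples can give, 200%, was reached by genes read in 1 sample only. Snord83b, a small nucleolar RNA, was at 0, 0, 0 and 30648 FPKM and so ranked 4 by its mean, and Mir30d was read in sample 3 alone at 3334 FPKM. Of 36 small RNA entries of at least 10 FPKM, 30 had a CV of at least 50%. These entries are shorter than 200 nt, and Snord83b is 94 nt long.

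Apart from small RNAs, 82 genes had a CV of at least 50%. Sample 4 was the highest in 66 of them and sample 2 the lowest in 62. The following groups among them were named after their values were seen. Prol1, Pip and Scgb1b27, secretory proteins known from lacrimal and salivary glands, were at 3.27, 0.29, 0.42 and 1375, at 1.28, 0, 0.24 and 464, and at 0.23, 0, 0 and 194 FPKM, high in sample 4 alone, as were Gm7714 (1.27, 0.09, 0.27 and 495 FPKM) and 2310057J18Rik (2.91, 0.29, 0.65 and 1332 FPKM). Ucp1, the uncoupling protein of brown fat, was at 1.34, 0, 26.3 and 26.3 FPKM and its companion Cidea at 1.91, 1, 22.8 and 19.1, high in samples 3 and 4 together. Defb50, a β-defensin of rank 32, was at 1104, 642, 1445 and 1946 FPKM, the order of Msmb.

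**Figure D5:**
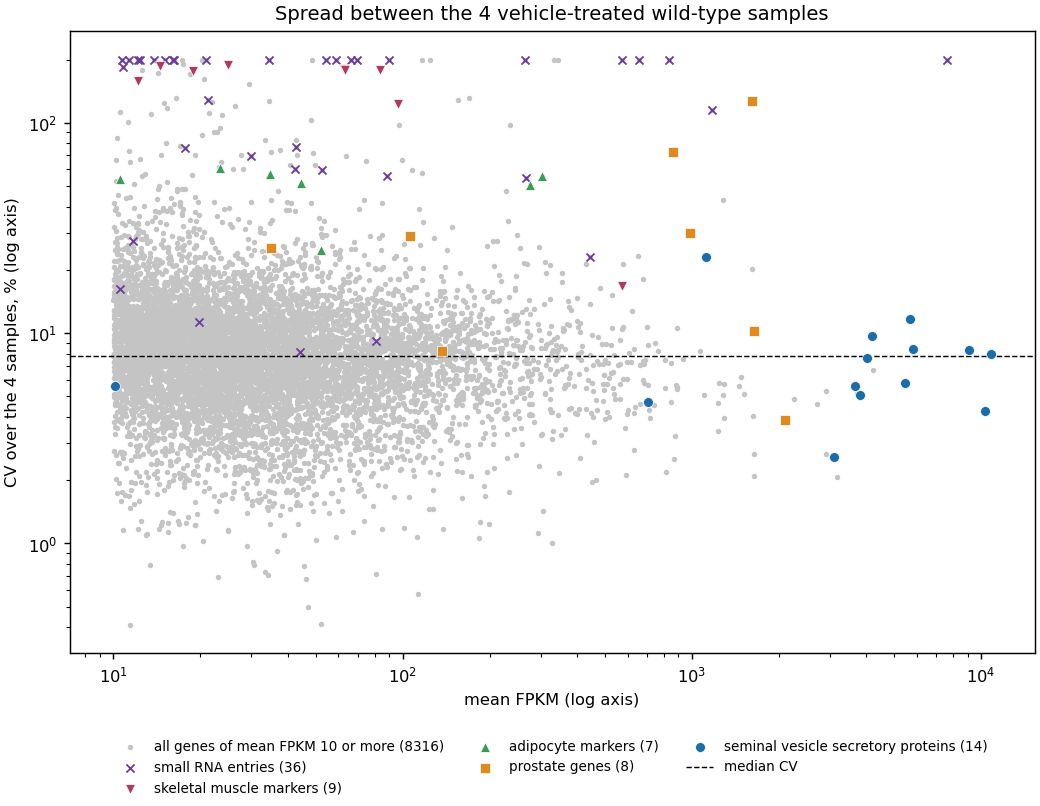
CV over the 4 WT-veh samples (y axis, log) against mean FPKM (x axis, log) for the 8316 genes of at least 10 FPKM, with the median CV of 7.76% dashed. Most SV secretory proteins lie near the line, while most small RNA entries, skeletal muscle and adipocyte markers, Sbp and Msmb lie far above it.

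How far the WT-veh profile differs from that of the other groups was asked with limma on log2(FPKM + 1) in 1 model of the 16 samples, over the 15988 genes whose group mean exceeded 1 FPKM somewhere among the 4 groups. A gene was called when its Benjamini-Hochberg adjusted p was 0.05 or less, its group means differed by 1.5-fold or more, and 1 of these means exceeded 1 FPKM. Differences are WT-veh minus the other group on the log2(FPKM + 1) scale, which understates those of low genes. The 3 comparisons share the WT-veh samples and so are not independent of each other.

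Against αERKO-veh, the secretory genes mostly stayed uncalled. Genes called lower in WT-veh, receptor genes among them, became fewer once transcript length was taken into account. Over all genes, 2.63% were called higher and 4.5% lower in WT-veh, a split of 420 to 719 that became 122 to 1453 with every sample set to the same total without the 20 highest genes. Esr1, the gene disrupted in the other group, was called at 3.87 ± 0.802 FPKM against 1.52 ± 0.195 (difference 0.94, standard error 0.19, limma adjusted p = 0.00741). Of 16 tested SV secretory genes, 0 were called higher and 2 lower, Doxl2 and Sval2, and their median difference was 0.26 against 0.02 for all genes, turning to −0.13 under quantile normalization. Svs4 averaged 10334 ± 439 FPKM in WT-veh and 6692 ± 1274 in αERKO-veh without overlap, but the difference of 0.65 (standard error 0.34) was not called, at a limma adjusted p of 0.182. Of receptor tyrosine kinases, 0 of 49 were called higher and 10 lower, with Erbb3, the partner of Erbb2, at 17.6, 17.9, 13.2 and 9.79 FPKM against 27.8, 36.5, 25.2 and 31.8 (difference −1.03, standard error 0.21, limma adjusted p = 0.00765). Of morphogen receptors, 8 of 33 were called lower, and of cytokine and hormone receptors 4 of 33, among them Prlr at 28.6 ± 4.49 against 54.6 ± 7.13 FPKM (difference −0.91, standard error 0.26). With each sample corrected for its trend on transcript length, these counts became 4 of 49, 1 of 33 and 0 of 33, and Prlr was no longer called. Over all 15009 genes with a length, those called lower fell from 679 to 310 with this correction. Without WT-veh sample 4 the receptor counts were 7, 5 and 1. The call of Prlr ended without WT-veh sample 3 or 4 or αERKO-veh sample 2 (limma adjusted p of 0.0541 to 0.0738). The αERKO-veh samples had length trends of −0.0915, 0.444, 0.115 and 0.259, all above those of WT-veh.

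Among listed genes with a mean of at least 10 FPKM in 1 of the 2 groups and no overlap between the groups, those called higher than in αERKO-veh with the 5 largest ratios of mean FPKM were Serpina3g, a serine protease inhibitor, at 10.9 ± 1.75 FPKM against 4.99 ± 0.573, the lysozyme Lyz1 at 27.1 ± 2.45 against 14.4 ± 4.43, Hba-a2, Hbb-bs and the mesenchymal factor Twist2 at 24.5 ± 2.26 against 14.3 ± 1.16 (difference 0.73, standard error 0.16, limma adjusted p = 0.00943). The call of Lyz1 and both globins ended under the length correction. Hba-a2 also lost it without any 1 of the samples of either group except WT-veh sample 2, and Hbb-bs without WT-veh sample 3 or 4 or αERKO-veh sample 2 or 3 (limma adjusted p of 0.0552 to 0.144). By the same rule, those called lower were, besides Erbb3 and Prlr, the Krüppel-like factor Klf5 at 4.80 ± 0.414 against 11.0 ± 4.12, the angiotensin receptor Agtr1a at 7.08 ± 2.996 against 14.5 ± 2.62 and the orphan receptor Nr4a3 at 14.03 ± 3.15 against 27.6 ± 6.13 FPKM. These calls were close to the threshold: Klf5 lost it without WT-veh sample 3 or 4 or αERKO-veh sample 2, 3 or 4, Nr4a3 without WT-veh sample 3 or 4 or αERKO-veh sample 2 or 4, and Agtr1a without αERKO-veh sample 2 (limma adjusted p of 0.0510 to 0.0829). Skeletal muscle markers were also called, 5 of 12 lower in WT-veh, with a summed level of 582 to 2042 FPKM, against 616 to 2492 in αERKO-veh. Without WT-veh sample 4 there were 10 of 12, and without sample 2 there was 1.

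Against αERKO-DES, fewest genes were called, with 1.97% of genes called higher and 1.21% lower in WT-veh, a split of 315 to 193 that became 197 to 212 with that scaling and 156 to 226 under quantile normalization. SV secretory genes had a median difference of 0.07 (0.03 for all genes) and 3 of 16 were called, all lower in WT-veh. Sval2, a relative of the seminal vesicle antigen, was at 0.61, 0.96, 1.27 and 0.74 FPKM against 6.94, 7.67, 17.9 and 11.4 (difference −2.59, standard error 0.30, limma adjusted p = 0.000475), and Doxl2 was at 10.1 ± 0.569 against 31.2 ± 8.74. The third was Pate2, at 0.38, 0.56, 0.78 and 0.25 against 0.87, 0.97, 1.39 and 1.21 FPKM (limma adjusted p = 0.0490), levels that rest on few fragments, and without WT-veh sample 2 or sample 4 the count was 2. By the rule used above for the largest ratios, the other 3 listed genes called lower were Ero1lb, an oxidase of the endoplasmic reticulum, at 51.0 ± 5.80 against 117 ± 21.2 FPKM, the protease inhibitor Eppin (4.46 ± 0.618 against 10.4 ± 1.49) and the prostaglandin synthase Ptgds (3.98 ± 0.868 against 12.1 ± 4.10), and the last 2 lost the call under most removals of a single sample (limma adjusted p of 0.0540 to 0.104 for Eppin and 0.0582 to 0.0837 for Ptgds). Eppin lost it without any 1 of the samples of either group, and Ptgds without WT-veh sample 2, 3 or 4 or αERKO-DES sample 2 or 3.

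Of adipocyte markers, 6 of 8 were called higher in WT-veh than in αERKO-DES with a median difference of 3.32. Adipoq was at 34.8 ± 19.8 FPKM against 1.07 ± 0.535 and Cfd (adipsin) at 276 ± 139 against 11.6 ± 8.03, and Retn and Cidec were likewise called, although Cidec lost the call without WT-veh sample 4 or αERKO-DES sample 3 or 4 (limma adjusted p of 0.0508 to 0.0579). Summed over the 8 markers, WT-veh ranged from 261 to 1183 FPKM and αERKO-DES from 53.6 to 103, while αERKO-veh ranged from 127 to 1179. Without WT-veh sample 4 the count was 4 of 8. Fibroblast markers were called higher in 5 of 8, among them Dcn at 255 ± 21.1 against 162 ± 13.7 FPKM (difference 0.65, standard error 0.11), and in 3 of 8 without that sample or 2 of 8 under quantile normalization. Wfdc3 had the largest ratio of mean FPKM among called listed genes without overlap between the groups, at 55.8, 2.19, 106 and 226 FPKM against 0.6, 0.84, 0.1 and 0.52, with a limma adjusted p of 0.00739.

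Against WT-DES, calls were far more common, 23.9% higher and 28.9% lower in WT-veh, and the secretory genes were among those called higher. SV secretory genes were called higher in 14 of 16 with a median difference of 3.70, against 0.01 for all genes, and prostate genes in 9 of 9 with a median of 5.19. Their summed FPKM was 63839.9 to 73398 for the SV list in WT-veh and 2766 to 9249.6 in WT-DES. Among called listed genes of at least 10 FPKM in 1 of the 2 groups and without overlap, the largest ratios of mean FPKM were those of Doxl2, 9530002B09Rik, Msmb, Ren2 (renin) and Gsdma (gasdermin A). Msmb was at 94.8 to 1586 FPKM in WT-veh and 41.9, 10.3, 3.31 and 24.8 in WT-DES, and Gsdma at 137 ± 11.2 against 3.65 ± 2.39 (difference 5.06, standard error 0.29). Of 56 genes of the secretory route, 55 were tested, 51 called higher and 1 lower.

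In the other direction, the 5 largest ratios by the same rule were those of leukocyte and defence genes. These reached 10 FPKM only in WT-DES, and their ratios rest on WT-veh levels near 0. Ngp stood at 0, 0.1, 0.05 and 0 FPKM in WT-veh, below the level of 3 fragments per kilobase. S100a9, a calcium-binding protein of neutrophils, was at 0.89, 0.71, 0.95 and 1.09 FPKM against 415, 41.4, 46.7 and 97.4 in WT-DES (difference −5.65, standard error 0.49), and S100a8, Ngp, the antimicrobial lectin gene Reg3g and the immunoglobulin joining chain gene Igj were called with it. All 8 macrophage, 7 T cell and 5 neutrophil markers tested were lower in WT-veh. Fibroblast markers were lower in 7 of 8 and endothelial markers in 8 of 8, whereas luminal epithelial markers were higher in 9 of 11, and in 3 of 11 with 1 lower under quantile normalization. With every sample set to the same total without the 20 highest genes, the median gene moved by −0.375 and the split of calls from 3815 higher and 4613 lower to 1831 and 6745. Under quantile normalization it was 3904 higher and 3673 lower, and over genes with a mean above 5 FPKM it was 3466 and 2934.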

How the data were processed

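RNA-seq of whole SVs at week 5 was deposited by the authors as 1 table of FPKM values for 31274 genes in 16 samples, 4 per group. The submitters' notes and the study's methods give paired-end reads filtered at a mean quality of 20, alignment to mm10 with TopHat 2.0.4 and FPKM from Cufflinks 2.0.2. The gene annotation and any scaling between samples are not given in the sources used here. All 16 columns matched a sample by name, and 0 columns had none. P-values measure the spread between samples, which the methods describe as individual mice except in WT-DES.

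Genes were ranked by mean FPKM over the 4 WT-veh samples, and spread is the CV of genes of at least 10 FPKM. Gene lists were matched by symbol, and transcript lengths and positions came from GENCODE M21 on GRCm38. Comparisons used limma 3.58.1 in R 4.3.3 on log2(FPKM + 1) with a variance trend, since FPKM values cannot enter a count test, and the fit was tested on simulated data. Ranks, spreads and plots came from matplotlib 3.10.9, scipy 1.17.1, numpy 2.4.6 and pandas 2.3.3 under Python 3.11.15. The length correction subtracted a lowess trend (span 0.3) from each sample.

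The named genes were the 30 highest, the 5 highest of each list or family and all cell type markers, the 10 steadiest and 10 most variable genes, the 5 listed genes with the largest ratio in each direction of a comparison, and Esr1, Svs4, Svs2 and Ceacam10. Sbpl, Ltf, Fos, Esr2, Pgr, Nr3c1, Chrm3, Adra1a and the variable genes named as such were added after their values were seen. Some genes that this rule names are not reported here. The members and lists were chosen with earlier results of these data known. Alternatives were other pseudocounts, minimums and scalings, the length correction, a replicate block, a fit of the compared groups alone and leaving out each sample.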

Additional observations from a re-analysis of the deposited data

Results flagged for a closer look

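Among 118 values over the 4 WT-veh samples, 15 had a sample whose gap to its nearest neighbour took up more of the whole range than Dixon's critical value for 4 samples, which chance alone passes in about 1 of 20 groups of 4. Of these, 10 were small RNA entries read in a single sample. They were tested as the 10 genes with the largest CV, so their flags were fixed in advance and cannot be set against that rate. Snord83b was at 30648 FPKM in sample 4 alone. Sample 3 alone held Mir30d at 3334, TRNA_Leu at 2623, Mirlet7c-2 at 359 and Mir8116 at 278 FPKM. Sample 1 alone held Snord35b at 2287, Mir6395 at 1056 and Mir8094 at 218 FPKM. Mir8104 was at 264 FPKM in sample 2 alone and Mir196a-1 at 234.5 in sample 4 alone.

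The other 5 were of different kinds. Svs6 stood at 6659 FPKM in sample 2, above the other samples, and Twist2 at 27.8 FPKM in sample 4. The summed skeletal muscle markers reached 2042 FPKM in sample 4. Sums of T cell markers, at 14.9 FPKM, and of germ cell markers, at 0.67 FPKM, were highest in sample 1.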

How the results depend on the processing

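The profile moved little: genes of at least 1 FPKM numbered 14123 to 14230 without 1 sample each, against 14222. The median CV of 7.76% was 6.36% to 8.02% without 1 sample each, the lowest without sample 4, 8.81% with every sample set to the same total and 9.37% over genes of at least 1 FPKM. The shares of the 20 highest genes and of SV secretory genes stayed within the spread of the samples under all alternatives run, including leaving out small RNA entries, which was chosen after seeing the data. Against αERKO-veh, 1139 called genes became 1020 over the genes with a known length, a restriction chosen after seeing the data, and 447 once the length correction was applied to these, 739 with no minimum on FPKM and 418 to 1691 without 1 sample each, with 418 without αERKO-veh sample 2 and 715 without WT-veh sample 3. Against αERKO-DES, 508 became 270 with no minimum, 795 with only these 2 groups in the fit (562 higher and 233 lower) and 199 to 883 without 1 sample each. That count was 883 without αERKO-DES sample 1, 199 without its sample 3, 206 without its sample 4, 259 without WT-veh sample 3 and 217 without WT-veh sample 4. Against WT-DES, 8428 became 8169 to 8669 without 1 sample each. The cause of these moves was not tested. Replicate numbers did not pair the samples, with correlations of −0.215 to 0.164 between the deviations of equal numbers, and a replicate block gave 1125 called genes against αERKO-veh, 394 against αERKO-DES and 8409 against WT-DES. Of 508 alternative values for 30 named differences, 62 in 10 of them were no longer called and 0 reversed. The FPKM keep no exact read counts, so the error of levels near 0.148 to 0.155 FPKM is large.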
